A study of Mus musculus with 12 samples.

Results

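Acute phase proteins and complement factors were followed through a serial cartilage to bone differentiation in cell pellets. The genes comprised 5 acute phase and lipid-related secreted proteins (Hp, Lcn2, Saa3, Orm1 and Pla2g2a) and 4 complement genes (C3, C4b, Cfb and Serping1), that is 9 of the 28244 gene symbols measured. They were listed by symbol, as a group in which several were known to be higher at the end of the protocol. For that reason the values at D28 are given below as a description, without a test, and the tests are restricted to the earlier time points. All 9 passed the filter on low values, for which 3 or more libraries had to reach a log2 value of 1, as did 17674 genes. Cfb and Pla2g2a were close to the detection limit before D28.

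The cells were murine progenitors of strain C57/BL6, with no transgene or deletion named in the labels, taken from the cartilage ends of femurs and tibiae of pups 5 or 6 days old. All pellets received chondrogenic medium for 7 days, and D7 pellets were harvested at that point. D8, D10 and D28 pellets were then kept in osteogenic medium for 1, 3 and 21 days. Each time point had 3 libraries, and since the labels do not say whether these came from separate animals or cultures, the p-values measure only the spread between these samples. The pellets are a mixture of cells, and in bulk RNA fewer cells of a type and less RNA per cell cannot be told apart. The 12 chondrocyte markers checked were all above 0 at each time point.

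Acute phase proteins are secreted in large amounts by the liver in inflammation, mainly under the control of interleukin-6 and interleukin-1, and many are also made by fat cells, macrophages and connective tissue cells. Complement is a cascade of plasma proteins. The classical pathway starts with C1q, C1r and C1s and cleaves C4 and C2, the alternative pathway uses factor B and factor D, and all routes meet at C3, while the C1 inhibitor encoded by Serping1 restrains the first step.

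The deposited value of a gene is the log2 of its equalized read count plus a pseudocount of 1. Since the equalization gave all libraries nearly the same set of values, a value reflects the rank of a gene within its library. Original read totals are not kept. Relative depth, estimated from the lowest levels, was 0.790 to 1.06 at D7, 0.962 to 1.22 at D8, 0.730 to 1.05 at D10 and 1.20 to 1.31 at D28. A value of 3 reads corresponded to at most 2.87 on the log2 scale, and the low values of Cfb and Pla2g2a are given as reads. Such levels cover counting error only, and the same molecule may have been read more than once, since no molecular identifiers were used.

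The promoters of 3 members were available and are shown because these genes all fell between D7 and D10. They are RefSeq sequences of GRCm38.p6, the 250 bases before the start of each gene, on the minus strand for all 3, with the matches to 2 motif patterns in capitals. The coordinates are chr2:32387740-32387989 for Lcn2, chr7:46715677-46715926 for Saa3 and chr17:57228137-57228386 for C3, and the starts used for Lcn2 and Saa3 lie inside the longer spans that GENCODE gives for these genes.
Lcn2: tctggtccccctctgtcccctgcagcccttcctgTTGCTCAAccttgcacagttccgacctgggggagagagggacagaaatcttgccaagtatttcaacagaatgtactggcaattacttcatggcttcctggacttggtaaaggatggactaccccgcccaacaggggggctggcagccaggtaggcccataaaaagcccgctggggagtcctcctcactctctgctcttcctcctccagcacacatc
Saa3: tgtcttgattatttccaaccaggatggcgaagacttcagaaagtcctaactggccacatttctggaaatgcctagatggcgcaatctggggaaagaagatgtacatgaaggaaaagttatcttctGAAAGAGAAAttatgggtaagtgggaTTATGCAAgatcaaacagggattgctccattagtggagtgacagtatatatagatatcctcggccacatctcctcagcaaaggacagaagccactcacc
C3: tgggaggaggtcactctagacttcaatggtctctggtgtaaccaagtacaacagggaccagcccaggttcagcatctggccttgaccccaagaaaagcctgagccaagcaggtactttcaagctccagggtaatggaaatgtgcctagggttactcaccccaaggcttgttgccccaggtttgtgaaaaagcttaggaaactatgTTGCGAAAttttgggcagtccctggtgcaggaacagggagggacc
The capitals mark the pattern TTNNGCAA of C/EBP factors in all 3 sequences, on the gene strand in Saa3 and on the opposite strand in Lcn2 and C3, beginning at positions -216, -99 and -45 for Lcn2, Saa3 and C3. In Saa3 they also mark the pattern of interferon regulatory factors (a pair of GAAA blocks set apart by any 2 bases) at position -125. Both strands of the 250 bases before to 50 after the start were searched, and the C/EBP pattern was present in 10.8% and the interferon pattern in 3.44% of the 32851 promoters in the same table. C3 also held TATAAA, searched on the gene strand only and present in 8.32% of promoters, at position 15, outside the stretch shown. The patterns of NF-kB (1.63% of promoters), of STAT factors, TTCNNNGAA (8.30%), and of the glucocorticoid receptor (0.475%) had no match in these 3 windows. A match of letters is a description and not evidence of binding.

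Hp, the gene of haptoglobin, the plasma protein that binds free haemoglobin, showed the largest fall of the group at D10. Hp lies at chr8:109575128-109579172 on the minus strand of GRCm38. Its log2 value was 13.68, 12.93 and 13.71 in the D7 libraries, 11.73, 11.08 and 11.34 at D8, and 7.36, 8.15 and 7.99 at D10. All D8 libraries were below all D7 libraries and all D10 libraries were below both. The fall was 2.05 on the log2 scale after 1 day (standard error 0.22, limma adjusted p = 1.7e-05) and 5.60 after 3 days (standard error 0.22, limma adjusted p = 2.4e-10), which is 48.7-fold. Between D8 and D10 Hp fell by a further 3.55 (limma adjusted p = 9.1e-08). At D28 Hp stood at 16.52 in all 3 libraries, because it held rank 21 from the top in each. In D7 libraries its rank had been between 216 and 392, and at D10 it was between 8322 and 9645. The D28 mean was 3.08 above D7 and 8.68 above D10 on the log2 scale.

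**Figure D1:**
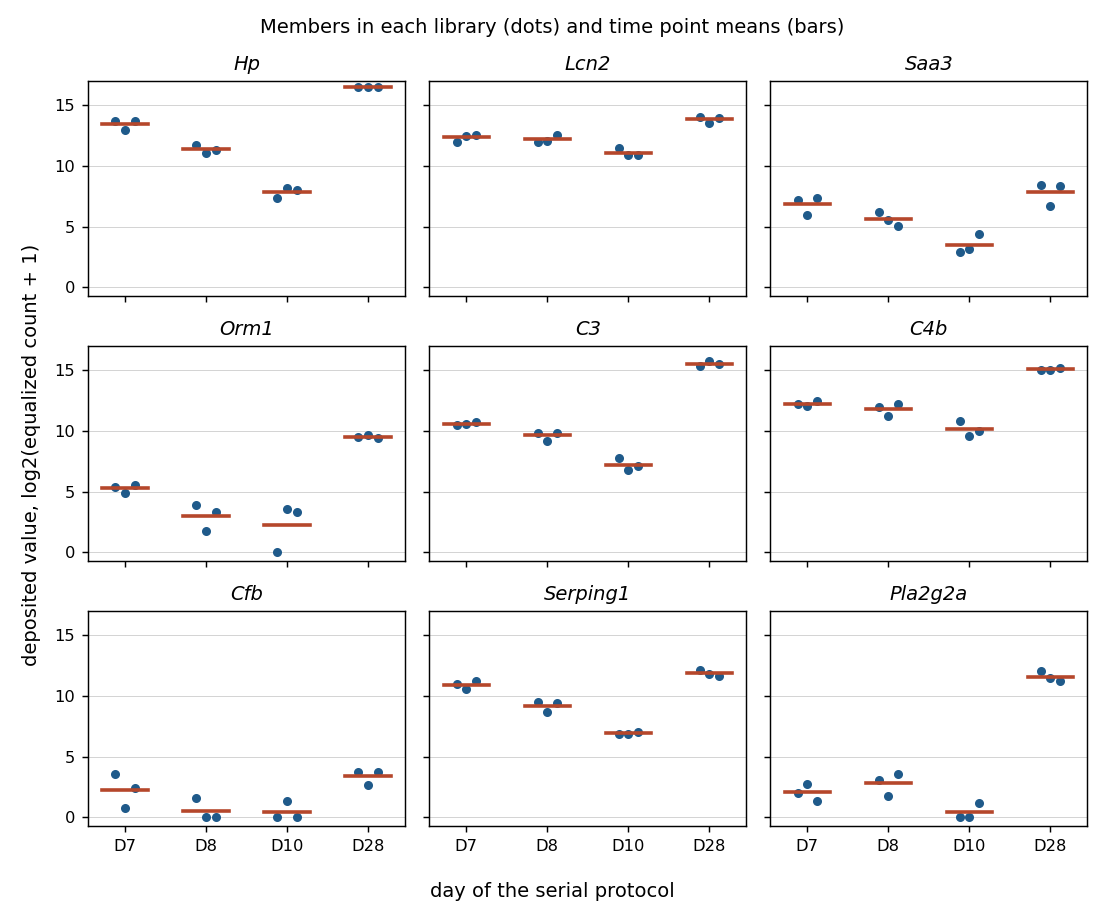
Deposited log2 value of each of the 9 genes (vertical axis, log2 of the equalized count plus 1) in the 3 libraries of D7, D8, D10 and D28 (dots), with the mean of each time point as a bar. Hp ran from a mean of 13.44 at D7 down to 7.83 at D10 and up to 16.52 at D28, while Lcn2 stayed between 10.92 and 14.06 in all libraries.

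Lcn2 encodes lipocalin 2, which binds bacterial siderophores and limits iron, and it lies at chr2:32384633-32388252 on the minus strand. Its log2 value was 11.97, 12.49 and 12.59 at D7, 12.01, 12.04 and 12.55 at D8, 11.44, 10.92 and 10.94 at D10 and 14.06, 13.51 and 13.96 at D28. D7 and D8 overlapped, D10 was below both and D28 was above all others. The difference of D8 from D7 was -0.15 (limma adjusted p = 0.65), and D10 fell by 1.25 against D7 (standard error 0.20, limma adjusted p = 0.00013) and by 1.10 against D8 (limma adjusted p = 0.00087). Without D8 replicate 3 the difference of D10 from D8 was -0.92 and under the fold threshold. The D28 mean was 1.49 above D7, the smallest such difference among the members that exceeded a log2 difference of 1 without overlap of the libraries.

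Saa3 encodes an acute phase serum amyloid A made outside the liver, for example in macrophages and fat tissue, at chr7:46711998-46715700 on the minus strand. It was measured at 7.20, 5.97 and 7.37 at D7, 6.22, 5.52 and 5.03 at D8, 2.87, 3.17 and 4.42 at D10, and 8.41, 6.73 and 8.38 at D28. D8 overlapped D7 through D7 replicate 2, and D28 also overlapped D7, whereas D10, with 3, 5 and 14 reads, was below all others. Against D7 the fall at D10 was 3.36 (standard error 0.52, limma adjusted p = 9.1e-05), and the difference at D8 was -1.25 (limma adjusted p = 0.1). Without D7 replicate 2 the D8 difference was -1.69 and passed the threshold (limma adjusted p = 0.042). From D8 to D10 Saa3 fell by 2.11 (limma adjusted p = 0.0066). The D28 mean was 1.00 above D7 on the log2 scale, 0.56 without D7 replicate 2 and 1.55 without D28 replicate 2. None of the 59-base windows of Saa3, the read length, was shared with Saa1, Saa2 or Saa4.

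Saa1 and Saa2, the serum amyloid A genes mainly expressed in liver, were lowest at D10. Both were listed at 0 in all D10 libraries, and their D7 means were 4.41 and 3.52. Both were called lower at D10 than at D7 (limma adjusted p = 0.0001 and 0.0002). With values raised to the level of 3 reads per library, Saa1 was at least 2.90-fold lower, whereas the call of Saa2 was lost (-0.64, adjusted p = 0.092). At D28 Saa1 was below D7 by 2.41 (limma adjusted p = 0.012), or by 1.41 without D28 replicate 2, which was at 0, and the call was lost under the selection rule of the study, and the difference of Saa2 was -1.29 (limma adjusted p = 0.1). Saa1 shares 26.4% of its 59-base windows with Saa2, so reads may have been split between them.

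Orm1, the gene of orosomucoid 1, a small lipid and drug binding plasma glycoprotein, lies at chr4:63344560-63348163 on the plus strand. Its log2 value was 5.40, 4.89 and 5.56 at D7, 3.91, 1.77 and 3.36 at D8, 0, 3.58 and 3.29 at D10, and 9.47, 9.66 and 9.44 at D28. D8 and D10 overlapped each other and were below D7, and D28 was above all other libraries. The fall at D8 was 2.27 (standard error 0.73, limma adjusted p = 0.038). At D10 Orm1 fell by 2.99 against D7 (limma adjusted p = 0.0039), or by 1.85 without D10 replicate 1, which was at 0. D10 did not differ from D8 by the test (-0.72, limma adjusted p = 0.51). The D8 call was not kept with no filter on low values (adjusted p = 0.061), with a pseudocount of 0.1 (adjusted p = 0.21), with limma run without the trend (adjusted p = 0.10), or without any of 8 single libraries, namely the 3 of D7, the 3 of D28 and D8 replicates 2 and 3 (adjusted p from 0.051 to 0.17). The D10 call was not kept under the selection rule of the study, which tests each gene on its own. The D28 mean was 4.24 above D7. Its neighbours Orm2 and Orm3 rose at D28 against D7 by 4.24 (limma adjusted p = 3.2e-05) and 5.48 (limma adjusted p = 5.7e-06). Their D7 means of 0.83 and 1.13 are under the level of 3 reads, so that these fitted differences are no bounds. With values raised to that level the rises were 2.19 and 3.74. Orm1 shares 18.0% of its 59-base windows with that pair.

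Pla2g2a encodes a secreted phospholipase A2 of inflammatory fluids that releases fatty acids from membranes. It lies at chr4:138831857-138835186 on the plus strand and is annotated in GENCODE as a polymorphic pseudogene, since the allele of this strain carries a frameshift, so that the RNA measured here need not yield the enzyme. The D7 libraries held 3, 6 and 1 reads, the D8 libraries 7, 2 and 12, and the D10 libraries 0, 0 and 1. At D28 the log2 value was 12.03, 11.49 and 11.25, which ranked between 815 and 1571 from the top of the library. The 3 D28 libraries thus stood far above all 9 others, with a mean 9.53 above D7 on the log2 scale, or 8.71 with low values raised to the level of 3 reads. No fold against D10 is given, because 1 read was seen in that group.
The D10 value was below D7 by 1.66 (limma adjusted p = 0.019) and below D8 by 2.40 (limma adjusted p = 0.0031). Both calls were lost when values under the level of 3 reads were raised to it, with a difference of 0 (adjusted p = 1) and -0.30 (adjusted p = 0.34), and the D10 against D7 call was lost without D7 replicate 2 (adjusted p = 0.080), D10 replicate 1 (adjusted p = 0.061) or D10 replicate 2 (adjusted p = 0.059). The gene overlaps Pla2g5 on the opposite strand, with 0 exonic bases in common, and the strand setting of the counting is not given in the sources used here.

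C3, the gene of the central complement protein, lies at chr17:57203970-57228136 on the minus strand and had a log2 value of 10.49, 10.61 and 10.72 at D7. It was 9.83, 9.21 and 9.85 at D8, 7.79, 6.75 and 7.11 at D10 and 15.38, 15.73 and 15.54 at D28. No 2 time points overlapped. C3 was lower by 0.98 after 1 day (limma adjusted p = 0.0043), just under the fold threshold, and fell by 3.39 after 3 days (standard error 0.21, limma adjusted p = 1.5e-08). The D8 difference was past the threshold with median-of-ratios scaling (-1.03) and without D7 replicate 1, D8 replicate 1 or D8 replicate 3 (-1.04 to -1.09). From D8 to D10 the fall was 2.42 (limma adjusted p = 2.7e-06). At D28 C3 ranked between 38 and 54 among all genes, and its mean was 4.94 above D7.

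C4b encodes complement component 4, which is cleaved by C1s, and lies at chr17:34728380-34743882 on the minus strand. The values were 12.22, 12.07 and 12.46 at D7, 12.01, 11.27 and 12.27 at D8, 10.82, 9.61 and 9.98 at D10, and 15.03, 15.06 and 15.20 at D28. D7 and D8 overlapped, D10 was the lowest and D28 the highest group. The difference at D8 was -0.41 (limma adjusted p = 0.3), and the fall at D10 was 2.12 against D7 (standard error 0.26, limma adjusted p = 1.1e-05) and 1.71 against D8 (limma adjusted p = 0.00024). The D28 mean was 2.84 above D7. C4b shares 29.5% of its windows with C4a, for which the D7 and D28 means were 2.53 and 4.49, so that the split of reads between them is uncertain.

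Serping1, the gene of the C1 inhibitor, at chr2:84765387-84775444 on the minus strand, fell at both steps. It was 11.00, 10.57 and 11.28 at D7, 9.53, 8.67 and 9.41 at D8, 6.84, 6.91 and 7.04 at D10, and 12.19, 11.78 and 11.66 at D28, with no overlap between any groups. The fall was 1.75 at D8 (standard error 0.21, limma adjusted p = 4.6e-05), 4.02 at D10 (limma adjusted p = 2.8e-09) and 2.27 from D8 to D10 (limma adjusted p = 4.3e-06). The D28 mean was 0.93 above D7, and 4.95 above D10.

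Cfb encodes factor B, the protease of the alternative pathway, at chr17:34856374-34862518 on the minus strand, and was the member least detected. Its reads were 10, 1 and 3 at D7, 2, 0 and 0 at D8, 0, 1 and 0 at D10, and 20, 8 and 20 at D28. The D8 and D10 libraries held 2 reads or fewer, and the D28 values overlapped those of D7. Differences from D7 were -1.71 at D8 (limma adjusted p = 0.12) and -1.79 at D10 (limma adjusted p = 0.064), and neither was called. With values raised to the level of 3 reads both differences were -0.23. Without D7 replicate 2 both passed the threshold (limma adjusted p = 0.029 and 0.012), as did the D10 difference without D10 replicate 2 (limma adjusted p = 0.038). Of the 59-base windows of Cfb, 71.9% are also in the readthrough gene Gm20547, with which reads may have been shared.

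Counted over the group, 3 of 9 members (Hp, Orm1 and Serping1) fell after 1 day in osteogenic medium, where 3.81% of the 17674 tested genes were called lower and 3.23% higher. After 3 days 8 of 9 fell against D7, where 10.4% of tested genes were called lower and 8.5% higher, and the exception was Cfb. Between D8 and D10 7 of 9 fell, where 5.58% of tested genes did, the exceptions being Orm1 and Cfb. The median log2 difference of the members was -1.25 for D8 against D7, beside 0.03 over all tested genes, -2.99 for D10 against D7, beside 0.05, and -2.11 for D10 against D8, beside 0. The median of -2.99 is the estimate of Orm1, which was -1.85 without D10 replicate 1. The comparisons with D7 share the D7 libraries, and those with D10 share the D10 libraries. At D28 all 9 means were above D7, and for 7 members every D28 library was above every D7 library, as for 22.4% of tested genes, the exceptions being Saa3 and Cfb. Against D10 this held for 9 of 9, and for 25.6% of tested genes. Nothing is read from these counts, since the members were listed with D28 values known. The median member difference was 2.84 for D28 against D7 and 4.96 for D28 against D10, beside -0.03 and -0.10 over all tested genes.

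**Figure D2:**
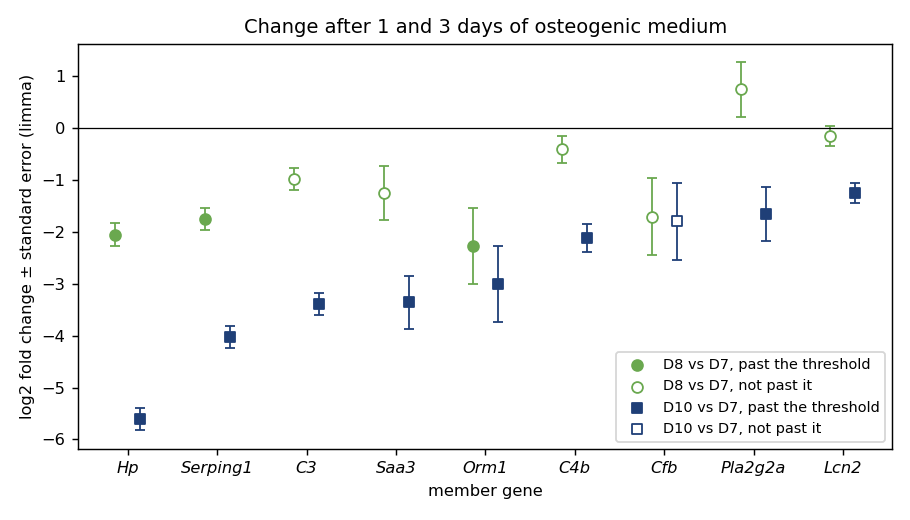
Log2 fold change of each member (vertical axis, limma estimate with its standard error) at D8 and at D10 against D7, ordered by the D10 value, with filled symbols for changes past the threshold. The D10 estimates run from -5.60 for Hp to -1.25 for Lcn2, and all but Cfb are filled, while 3 of the D8 symbols are.

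Levels between genes were compared per kilobase of annotated exons, on the unlogged scale. At D7 the order of the median level started with Hp at 8175 per kb, Lcn2 at 2198, Serping1 at 881 and C4b at 840, and the ranges of Serping1 (652 to 1067) and C4b (757 to 992) overlapped. C3 followed at 305, and Saa3 (55.8) and Orm1 (53.2) overlapped in their ranges. Pla2g2a and Cfb came last with medians of 3.32 and 1.59 and overlapped in their ranges. At D8 Hp (1609) and Lcn2 (1606) could not be separated.
By D10 the order had changed, with Lcn2 first at 750 per kb (740 to 1062 over the libraries). C4b at 177 (137 to 317) and Hp at 157 (102 to 177) followed and overlapped each other. At D28 Hp was first at 58419 per kb and C3, behind 4 of the members at D7, was next at 9248. Lcn2 (4446 to 6527) and C4b (5855 to 6599) overlapped. Pla2g2a, behind 7 members at D7, was behind 4 by its median of 3098 per kb (2621 to 4497), and overlapped Lcn2. Cfb was last at 4.42.
Together the 9 genes made up 0.0824 to 0.116% of the summed unlogged values of a D7 library, 0.0387 to 0.0593% at D8, 0.0127 to 0.0200% at D10 and 0.771 to 0.790% at D28, of which Hp alone was 0.367% at D28.

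**Figure D3:**
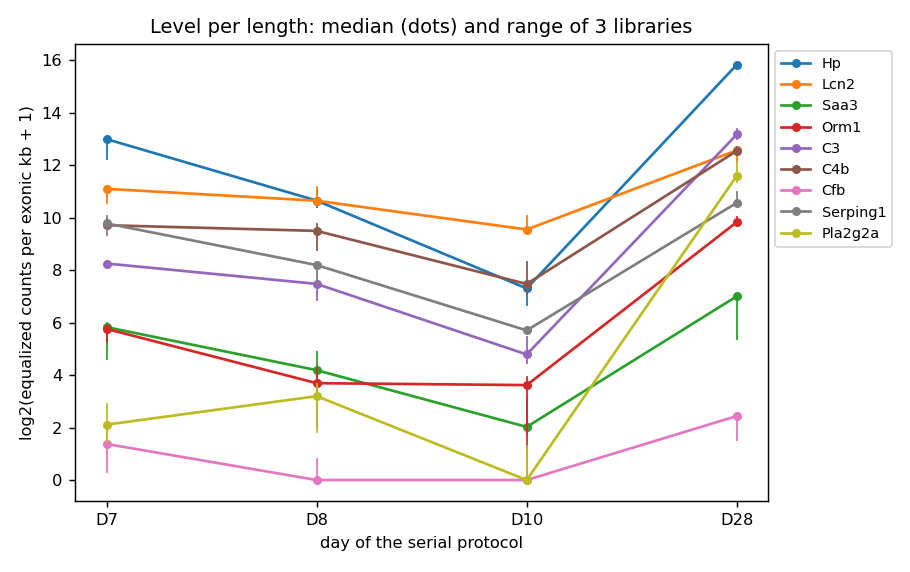
Level per length of the 9 members, as log2 of the equalized counts per exonic kilobase plus 1 (vertical axis), with the median (dots) and the range of the 3 libraries (vertical lines) at each time point. Lcn2 is the highest line at D10 with 750 per kb, and Hp is the highest at D28 with 58419 per kb.

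Across the 12 libraries the pairwise Pearson correlations of the members ranged from 0.668 for Cfb with Pla2g2a to 0.992 for C3 with C4b, with a median of 0.884 over 36 pairs. These are descriptions over 4 time points, which the libraries of a time point share. Among 12181 genes with a mean log2 value of at least 5, the patterns most like Hp were those of Cxcl12, a chemokine of stromal cells (r = 0.994), Clybl (r = 0.993) and Samhd1 (r = 0.992). For C3 they were Tcf7l1 (r = 0.995), Apoe, the lipid carrier apolipoprotein E (r = 0.994), and C4b. Serping1 was most like Pknox2 (r = 0.995), the protease inhibitor gene Serpina3n (r = 0.990) and Vdr, the vitamin D receptor (r = 0.989). Pla2g2a was most like Btd (r = 0.989), Nt5c2 (r = 0.986) and Gsn (r = 0.986). The closest to Lcn2 was Vit (r = 0.987), to Orm1 Acat2 (r = 0.982), to Saa3 Mfsd12 (r = 0.958) and to Cfb Tspan17 (r = 0.933), and to C4b it was C3.

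Of 39 other acute phase genes 30 were tested, and 16 fell and 1 rose at D10 against D7, where the median difference of the list was -2.77. Among those with a mean log2 value of at least 5, the largest falls were those of Serpina3m (-4.61, limma adjusted p = 2.6e-10) and Serpina3n (-4.37, limma adjusted p = 3.5e-09), both inhibitors of serine proteases. Steap4, a metalloreductase, fell by 4.10 (limma adjusted p = 2e-09) and A2m, the broad protease inhibitor alpha-2-macroglobulin, by 3.74 (limma adjusted p = 3.8e-09). The exception that rose was Cd14, a co-receptor for endotoxin (1.68, limma adjusted p = 9.7e-05). At D28 against D7, 13 rose and 2 fell, and the median was 0.87, where 8.63% of tested genes were called higher and 8.66% lower. A2m rose by 2.29 (limma adjusted p = 5.2e-07), Steap4 by 1.47 (limma adjusted p = 4.6e-05) and Serpina3n by 1.11 (limma adjusted p = 0.0017). Serpina3m, at 0.86, was under the fold threshold. Without D7 replicate 2 the sides were exchanged, with Serpina3n at 0.84 and Serpina3m at 1.01 (limma adjusted p = 0.0011).

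Among complement genes the initiating factors changed in both directions. Of 18 listed, 14 were tested, and 6 fell and 1 rose at D10. C1s1, the protease that cleaves C4, fell by 2.97 (limma adjusted p = 3.5e-09), its partner C1ra by 2.15 (limma adjusted p = 4.6e-07), the recognition chains C1qa and C1qc by 2.87 and 3.15, and C2 by 1.48 (limma adjusted p = 0.012). C1qb, a further recognition chain, also fell, and with values raised to the level of 3 reads, which its D10 libraries did not exceed, the fall was 2.21 and that of C1qc 2.51. The call of C2 was lost under the selection rule of the study and without D7 replicate 3 (adjusted p = 0.053) or D10 replicate 2 (-0.93, adjusted p = 0.061). Masp1, a protease of the lectin pathway, rose by 1.21 (limma adjusted p = 1e-05). At D28 against D7, 7 rose, among them C2 (2.40, limma adjusted p = 0.00043) and C1qc (2.47, limma adjusted p = 0.0032), while C1s1 was 0.97 lower, under the fold threshold with all libraries and past it without D7 replicate 3 (-1.03) or D28 replicate 3 (-1.02). D28 replicate 2 stood apart for C1qa, at 9.23 against 6.38 and 5.87 in the others, for C1qc, at 9.47 against 7.66 and 6.82, and for the macrophage marker Csf1r, at 7.92 against 4.72 and 5.13. Without that library C1qc was 1.73 above D7 (adjusted p = 0.020), C1qb 1.48 (adjusted p = 0.048) and C1qa 0.91 (adjusted p = 0.25), and the part of macrophages in these values was not tested. The D28 call of C1qa held in 11 of 21 alternatives.
Both other alternative pathway genes were tested. Cfd, factor D or adipsin, which cleaves factor B, fell by 2.35 at D10 (limma adjusted p = 5.6e-05) and rose by 9.20 at D28 (limma adjusted p = 5.9e-11). Cfp, properdin, which stabilizes the C3 convertase, rose by 1.15 at D10 (limma adjusted p = 0.035), a call that held in 13 of 21 alternatives and was lost without D7 replicate 2 (0.82, adjusted p = 0.14) or 3 or any D10 library, and by 2.73 at D28 (limma adjusted p = 8e-05).
Of 16 regulators tested, 5 fell at D10, including Clu, clusterin (-1.87, limma adjusted p = 1.4e-08), and Cd59a, an inhibitor of the membrane attack complex (-1.59, limma adjusted p = 0.00013). At D28 against D7, 3 regulators rose and 2 fell, among the latter Csmd1 (-2.38, limma adjusted p = 1e-05). Clu differed from D7 at D28 by 0.02 (limma adjusted p = 0.89) and Cd59a by 0.81, under the fold threshold. Of 5 terminal genes tested 1 fell at D10 and 2 rose at D28. Of 10 receptors 3 rose and 1, C3ar1, the receptor of the C3a fragment, fell at D10 (-2.98, limma adjusted p = 0.0061), a call lost with values raised to the level of 3 reads (-1.52, adjusted p = 0.089).

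**Figure D4:**
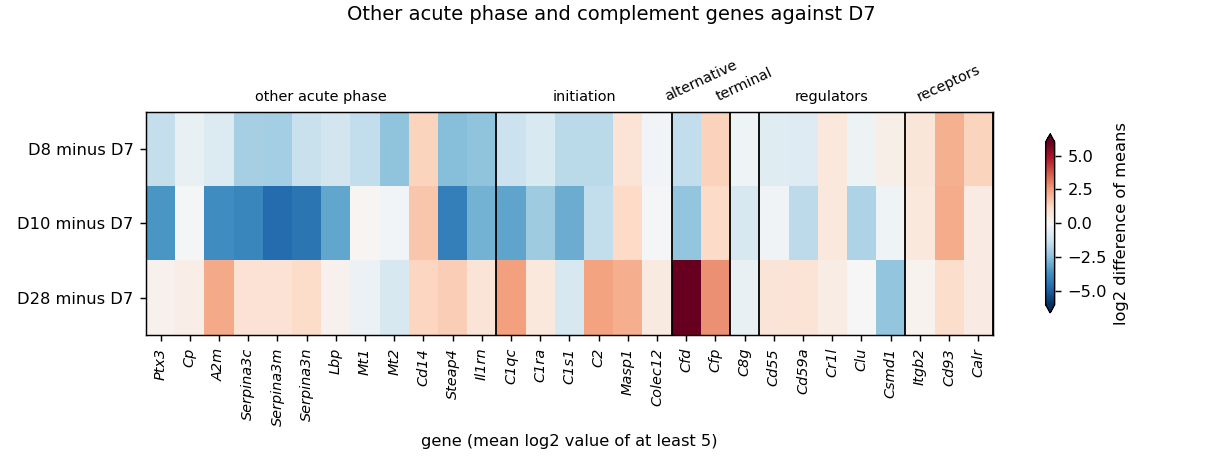
Difference of the mean log2 value from D7 (colour, red higher and blue lower) at D8, D10 and D28 for other acute phase and complement genes with a mean log2 value of at least 5, grouped by role. The colour scale ends at 6 in either direction, beyond which Cfd lies at D28 with 9.20.

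Among the other secreted phospholipases and their receptor, 8 of 11 genes were tested, and 2 fell and 1 rose at D10. Pla2g5, the neighbour of Pla2g2a, fell by 1.99 at D10 (limma adjusted p = 2.9e-06) and rose by 4.24 at D28 (limma adjusted p = 1.5e-09). The receptor gene Pla2r1 fell by 1.55 (limma adjusted p = 0.00059) and rose by 1.29 (limma adjusted p = 0.0029) in the same comparisons. Of 6 tested receptors and scavengers of the members' proteins 1 rose and 2 fell at D10. Hmox1, the haem-degrading enzyme downstream of haptoglobin, rose by 3.78 at D10 (limma adjusted p = 1.5e-08) and Scarb1 fell by 1.75.

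The genes of interleukin-6, interleukin-1 and tumour necrosis factor signalling, all 22 of which were tested, did not move as a block at D10, with 5 higher and 6 lower. Il6 rose by 3.28 (limma adjusted p = 0.0014) and Lif, a related cytokine, by 2.08 (limma adjusted p = 4.7e-06). The receptor genes Il6ra and Lifr fell by 2.68 (limma adjusted p = 1.2e-06) and 2.44 (limma adjusted p = 6e-07), and Socs3, the feedback inhibitor of this pathway, fell by 1.60 (limma adjusted p = 2.2e-05). At D28 against D7, 1 rose, Il1rap (1.19, limma adjusted p = 2.4e-05), and 4 fell. Among the falls were Il11 by 2.75 (limma adjusted p = 9.7e-07), Lif by 2.52 (limma adjusted p = 6.9e-07) and Socs3 by 2.46 (limma adjusted p = 2.8e-07).
Of 16 C/EBP and NF-kB genes tested, 1 rose and 2 fell at D10, and 2 rose and 2 fell at D28. Cebpd, a C/EBP factor of the acute phase response, fell by 1.81 at D8 (limma adjusted p = 9.9e-08) and by 2.59 at D10 (limma adjusted p = 4.6e-10), and was 0.57 above D7 at D28, under the fold threshold. Cebpb, the C/EBP factor that mediates interleukin-6 responses, differed from D7 by 0.97 at D10 (limma adjusted p = 0.00023), just under the fold threshold, and passed it without D7 replicate 1 or 3 or D10 replicate 2 (1.02 to 1.19). Of the NF-kB genes, Relb rose by 1.59 at D10 (limma adjusted p = 8.5e-06) and Bcl3 fell by 2.20 (limma adjusted p = 7.1e-06). Cebpa, a C/EBP factor of liver and fat, rose by 1.97 at D28 (limma adjusted p = 1.4e-07). Interferon response genes were called lower in 3 and higher in 1 of 27 at D10, and higher in 13 of 27 at D28, among them Gbp2 (2.44) and Gbp3 (2.24).

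Markers of cell types that make these proteins were read beside them. Of 12 adipocyte markers 8 fell and 1 rose at D10 against D7, and 11 rose at D28, with Adipoq, the adiponectin gene, at -3.04 (limma adjusted p = 8.5e-07) and 5.44 (limma adjusted p = 2.3e-09). The summed unlogged level of the list was 7455 to 7929 at D7, 4398 to 5222 at D8, 3061 to 3324 at D10 and 57435 to 75606 at D28, and that of the members was 21038 to 29567, 9889 to 15140, 3252 to 5096 and 196921 to 201610. Lep was listed at 0 in the D10 libraries. Both sums were lowest at D10 and highest at D28, and the part of adipocytes in the members' changes was not tested.
Macrophage markers summed to 2258 to 2312 at D7, 1355 to 1533 at D8, 1669 to 2405 at D10 and 2725 to 6930 at D28, with 2 of 11 tested markers lower and 1 higher at D10 and 1 higher at D28, and their part was not tested either. Neutrophil markers summed to at most 25.0 in every library, and Ly6g and Retnlg were listed at 0 at each time point. Hepatocyte markers summed to 31.3 to 57.8 at D7, 41.7 to 47.2 at D8, 10.3 to 28.1 at D10 and 741 to 848 at D28, with 2 of 8 tested markers lower at D10 and 3 higher and 2 lower at D28, and their part was not tested. Of these Ttr and Fgb were listed at 0 in all libraries, and Trf, the transferrin gene, which is also expressed outside the liver, fell at D10, by 1.20 with values raised to the level of 3 reads, which its D10 libraries did not exceed, and rose by 5.07 at D28, where it made up 505 to 669 of the summed level. Of 12 chondrocyte markers 8 fell at D10, and 2 rose and 3 fell at D28. Of 6 hypertrophic chondrocyte markers 4 fell at D10, while their summed level was 196181 to 242120 at D7 and 228476 to 355751 at D10. Col10a1, the collagen X gene that defines these cells, differed from D7 by 0.83 at D10 (limma adjusted p = 0.14) and fell by 2.99 at D28 (limma adjusted p = 6.1e-05). Of 11 tested osteoblast and osteocyte markers 5 rose and 4 fell at D10, and 5 rose and 2 fell at D28. Endothelial markers summed to at most 1419.

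**Figure D5:**
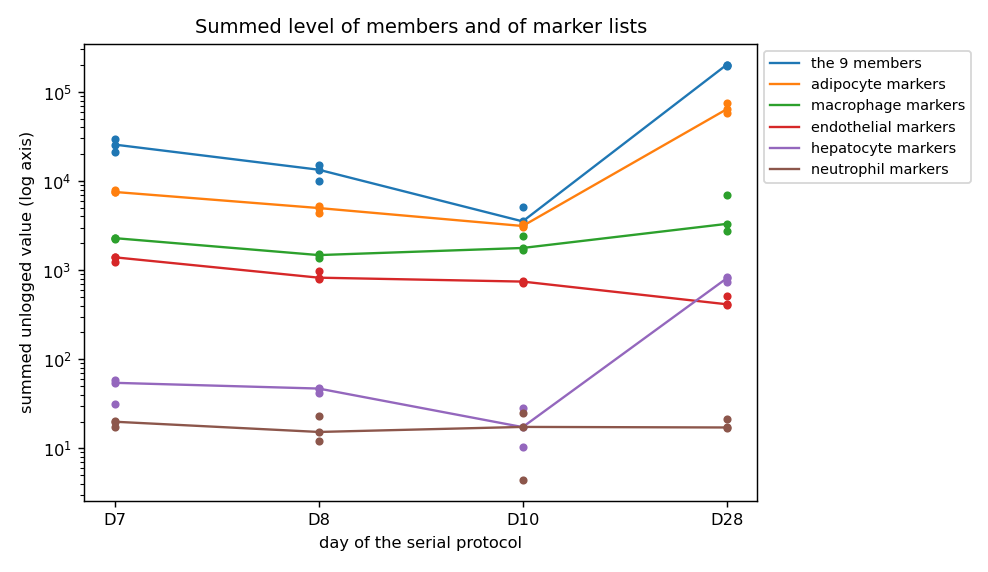
Summed unlogged value (vertical log axis) of the 9 members and of 5 marker lists in each library (dots), with lines through the median of each time point. The members fell from a median of 25608 at D7 to 3524 at D10 and stood at 201216 at D28. The adipocyte and hepatocyte lists had their lowest and highest values at the same time points.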

How the data were processed

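Pellets were profiled by RNA sequencing at 4 time points with 3 libraries each, 12 in all. According to the study's methods and the submitters' processing notes, reads were trimmed with Trimmomatic 0.36, mapped by HISAT2 and annotated by Cufflinks, HTSeq gave the counts of each gene, and Matlab was used to equalize and log transform them. The unit that the authors deposited is therefore log2, of the equalized count plus 1, without pooling of replicates. The notes give GRCm38, whereas the methods name a human build. The file lists mouse symbols, and positions are from GENCODE M21 on GRCm38. Sorted values were nearly the same in all libraries, so small differences in rank at high levels and read counting at low levels limit the precision.

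A gene was tested if 3 or more libraries reached a value of 1. The fit used limma 3.58.1 (R 4.3.3), with 1 coefficient per time point, a trend on the mean, two-sided moderated tests and Benjamini-Hochberg adjustment over all 17674 genes tested. Calls needed a log2 fold change of 1 or more in size and an adjusted p under 0.05. On simulated data for D10 against D7, with 17674 genes and normal noise, changes were planted in genes with a mean value of at least 5. The fit recovered 50 of 50 planted falls of 3 on the log2 scale and 48 of 50 falls of 2. It recovered 50 of 50 rises of 2 and 50 of 50 rises of 3, with 10 false calls. No changes were planted near the detection limit, where Cfb and Pla2g2a lay before D28.

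The members and the lists were chosen with earlier results of these data known. Genes named from a list were drawn from its 3 largest rises and falls past the threshold, for D10 and D28 against D7. A mean value of at least 5 was required, and not every gene that met this is named. Close relatives of members and genes among the 3 most like each member were also named. C1qa, C1qb, C3ar1, Cebpb, Il6 and the defining cell type markers were named after their values were seen. Position among the distinct low values of a library was taken as its read count. Alternatives covered the filter, the pseudocount, the scaling, the trend, the study's selection rule, a floor of 3 reads, a replicate block and each library left out. The values of 1 complement regulator are not reported here. The study's methods name Illumina's Stranded mRNA Prep kit, while the labels also describe the TruSeq Stranded mRNA kit for every sample, the strand setting of the counting is not given in the sources used here, and neither is a batch or date. Python 3.11.15 served for summaries (pandas 2.3.3, numpy 2.4.6) and for plots (matplotlib 3.10.9).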

Additional observations from a re-analysis of the deposited data

How the results depend on the processing

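The number of members called was 2 to 4 for D8 against D7, 7 or 8 for D10 against D7 and 6 or 7 for D10 against D8 over all alternatives, leaving out each library included, and the counts over all genes stayed within 1.5 times the values given. Of 4686 fold changes of named genes under the alternatives, 74 lost and 43 gained a call, 5 of those not tested moved by more than the spread between replicates, and 0 with a call turned to the opposite sign. Members that crossed the threshold are named in the report. Of 1638 counts over lists, 118 moved by over 1.5 times. Of the list counts of 5 or more for D10 or D28 against D7, the other acute phase genes went from 16 lower at D10 to 10 and from 13 higher at D28 to 6 when a mean log2 value of at least 3 was required, which leaves fewer genes tested, and the complement initiation genes from 7 higher at D28 to 4 under the selection rule of the study. Interferon response genes lower at D10 numbered 1 to 7 (7 without D7 replicate 2), macrophage markers lower at D10 1 to 4 and higher at D28 0 to 5 (5 without D28 replicate 1, 0 without D28 replicate 2), and the rise of Cfp at D10 and the single lower neutrophil marker were not kept in most left-out fits of D7 and D10 libraries. Whether replicate numbers pair the libraries was not tested. Of 18 pairs with the same number, 2 had deviations correlated above 0.1 (range -0.222 to 0.311), beside 13 of 36 pairs with different numbers. Replicate 2 of D7 and replicate 2 of D8 correlated best with each other (r = 0.311). Replicate 2 of D10 correlated best with replicate 2 of D8 (r = 0.285). At all of the other time points together, 0 libraries correlated best with their own number. With a replicate block, 3, 8 and 7 members were called in the 3 comparisons, and 1210, 3326 and 1691 genes of all tested, against 1244, 3340 and 1708 without it. Low depth limits Cfb and Pla2g2a before D28, Orm1 at D8 and D10 and Saa3 at D10, and original library totals are not known.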
